A study of Brassica rapa subsp. pekinensis with 6 samples.

Results

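The predicted 21-nt miRNAs of Chinese cabbage (Brassica rapa subsp. pekinensis) are mature sequences of 21 bases that the authors named from a genome hairpin without a match in miRBase, the public register of miRNAs. They were taken as the rows whose name starts with PC and whose mature sequence is 21 bases long, and rows that share a sequence were added together. This gave 101 distinct sequences of the 889 in the table, from 125 of its 1159 rows. Small RNA was measured in 6 libraries of germinated seeds of 1 doubled haploid line, 'FT', so all groups share 1 genotype. The 3 non-vernalized (Nor) libraries came from seeds kept at room temperature for about 48 h, and the 3 vernalized (Ver) libraries from seeds kept at 4 °C for 25 days. Both were held in the dark, and 1 dish of seeds counted as 1 biological replicate. The groups were sampled when they had reached the same length and therefore differ in the time since germination as well as in temperature, which cannot be told apart. The table holds miRNAs only, so the labelled tissue was not checked against marker genes.

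In plants a miRNA is cut by a Dicer-like enzyme from a transcript that folds back on itself. The cut leaves a short duplex with an overhang at each 3′ end, of which the guide strand is loaded into an Argonaute protein and the passenger strand is mostly degraded. ARGONAUTE1 of Arabidopsis, the main carrier of miRNAs, favours a first base of U, while the Argonautes that carry 24-nt small interfering RNAs favour A. Reads of both arms of a hairpin, offset by the overhang, are what annotation rules for plant miRNAs ask for. Vernalization is the acquisition of the ability to flower after a long cold period, and several conserved plant miRNAs act on the timing of flowering.

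The sequences below are those of the predicted miRNAs on which the results turn. They are printed 5′ to 3′ as in the deposited table, with T for U, and capitals mark the seed, bases 2 to 8. Among the 101 sequences there were 96 different seeds, and only 2 seeds were shared. Seeds do not show every relation, since 5 sequences shared a run of 16 or more bases with another of the 101, read in the same direction. The first set shares the seed TGTGGAA and holds the most abundant predicted miRNA.
PC-3p-2287_2359: tTGTGGAAccgtgtgaatacc
PC-3p-88318_29: tTGTGGAAcagtgtgaacacc
PC-5p-29573_176: tTGTGGAAtcccatagacaaa
PC-3p-2287_2359 and PC-3p-88318_29 are identical at 19 of 21 bases, and each matches PC-5p-29573_176 at 12.

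The second set shares the seed TACTCTA, and each of its 6 pairs is identical at 19 of 21 bases.
PC-3p-44920_95: tTACTCTAtattccactctat
PC-3p-125381_15: tTACTCTAtatttcactatat
PC-3p-101963_22: tTACTCTAtatgtcactctat
PC-3p-82465_33: tTACTCTAtattttactctat
The third set holds the 5 predicted miRNAs with no reads in Nor that were called higher in Ver, followed by PC-3p-10948_574, the most abundant one that rose from a measured Nor level.
PC-3p-19661_302: tTGTTCACaattgcatagtcc
PC-5p-39941_114: tTATGCAGttgtgaataaaca
PC-5p-29781_174: aTTAGTTTtaagtagaaagcc
PC-3p-38410_120: aAAAGACGgttttatatattc
PC-5p-68491_47: aGAGAGATatagttagaggac
PC-3p-10948_574: aAAAAGTTccaagtcttcatc

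Hairpins are printed for 3 precursors because both arms had reads there, with both mature sequences in capitals and positions on the B. rapa v3.0 genome. The precursor of PC-5p-208903_6 and PC-3p-2287_2359 has 135 bases and is listed at A06:674146-674280, plus strand.
A06 hairpin: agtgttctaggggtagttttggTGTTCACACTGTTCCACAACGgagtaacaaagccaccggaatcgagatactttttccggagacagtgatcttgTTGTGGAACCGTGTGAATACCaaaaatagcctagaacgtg
The precursor of PC-5p-39941_114 and PC-3p-19661_302 has 125 bases and is listed at A02:22818301-22818425, minus strand.
A02 hairpin: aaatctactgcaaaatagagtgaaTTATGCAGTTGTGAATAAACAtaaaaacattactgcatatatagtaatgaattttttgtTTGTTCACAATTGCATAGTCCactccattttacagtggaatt
The precursor at A09:11516471-11516650, plus strand, has 180 bases and carries PC-5p-4596_1293 on its 5′ arm and a 24-nt predicted sequence, PC-3p-3407_1680, on its 3′ arm.
A09 hairpin: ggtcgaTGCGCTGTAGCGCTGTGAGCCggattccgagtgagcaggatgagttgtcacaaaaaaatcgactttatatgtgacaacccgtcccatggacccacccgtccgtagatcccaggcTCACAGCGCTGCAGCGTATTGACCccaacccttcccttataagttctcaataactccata

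The 6 libraries held between 589061 and 968483 reads in the table, of which 1438 to 2383 per library were those of the predicted 21-nt miRNAs. These totals cover listed miRNAs and are not the sequencing depth. Values are given as deposited reads or as RPM, reads per 1000000 reads of the table after scaling with the TMM factors of edgeR. Among 2407 nonzero values of sequences on 1 row of the whole table none was exactly 1 or 2, 145 were under 5 and 233 were exactly 5. A minimum of 5 reads, before reads were divided over rows, was inferred from these values. A 0 in the table may therefore hide as many as 5 reads of a library. A group at 5 reads or fewer in every library is therefore compared at 5 reads per library, and the fold against it is a lower bound. Differences between 3 and 3 libraries were tested across all 405 sequences that passed the low-count filter with the quasi-likelihood test of edgeR, and the p was adjusted by Benjamini-Hochberg over all 405. An adjusted p under 0.05 was called. The test took a 0 in the table as 0, so a p printed beside a lower bound does not test that bound.

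The predicted 21-nt miRNAs were many and mostly rare. Together they made up 0.232% ± 0.0122 of the table reads in Nor and 0.254% ± 0.0138 in Ver (SD over 3 libraries each, exact two-sided permutation p = 0.2), and the libraries of the groups overlapped. Without PC-3p-2287_2359, the most abundant of them, the shares were 0.160% ± 0.0152 and 0.235% ± 0.0132 and the groups did not overlap (SD over 3 libraries each, exact two-sided permutation p = 0.1). With PC-3p-19661_302, read in Ver alone, left out as well, the difference was smaller. The shares were then 0.160% ± 0.0152 and 0.203% ± 0.0149, again without overlap (SD over 3 libraries each, exact two-sided permutation p = 0.1). By contrast, 21-nt sequences with a miRBase name held 76.3% ± 1.12 and 81.2% ± 0.379 (SD over 3 libraries each). The smallest p that 3 against 3 libraries allow is 0.1. Over the 6 libraries the 101 sequences had 10749.5 reads, 20.05% of them from PC-3p-2287_2359 and 61.3% from the 10 with the most reads. The median was 36 reads, 82 sequences had fewer than 100, and 1, PC-5p-130587_14 (named after its values were seen), had none. Reads in all 6 libraries were found for 30 of them and in a single library for 18.

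PC-3p-2287_2359 had the highest mean in Nor and PC-3p-19661_302 in Ver, although in Ver 2 PC-5p-4596_1293 was slightly higher than the latter (281 against 279 RPM). Next in the mean over all libraries after these and PC-5p-4596_1293 were PC-3p-10948_574, PC-5p-12932_485, PC-3p-28041_190, PC-3p-7098_872 and PC-5p-13944_448, with means from 129 down to 81.8 RPM. The median over the 100 predicted 21-nt miRNAs with reads was 8.26 RPM, against 86.2 RPM for the 202 miRBase-named 21-nt sequences with reads and 4.13 RPM for the 222 predicted 24-nt sequences with reads. Detected sequences numbered 74, 61 and 55 in Nor 1 to 3 and 63, 58 and 58 in Ver 1 to 3, and the groups overlapped (exact two-sided permutation p = 0.8). Nor 1 had the most reads in the table. A level that all libraries can reach was 8.49 reads per 1000000 table reads without TMM scaling, which is 5 reads in the smallest library. At that level the numbers were 54, 40 and 43 in Nor and 47, 55 and 47 in Ver.

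The first base was mostly U, as is usual for miRNAs carried by ARGONAUTE1. Of the 101 sequences 53 (52.5%) began with U, 36 with A, 9 with C and 3 with G. Among the 205 miRBase-named 21-nt sequences U came first in 43.9% and A in 20.5%. The 225 predicted 24-nt sequences began with A in 77.3%. The last base was C in 46 of the 101 sequences (45.5%), in 34.1% of the miRBase-named 21-nt sequences and in 59.1% of the predicted 24-nt sequences. GC content had a median of 38.1%, against 47.6% for the miRBase-named 21-nt sequences and 37.5% for the predicted 24-nt sequences, and 32 sequences were under 30% GC. These shares describe the lists and were not tested.

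Counted by reads, the share with U first was larger in each Nor library than in any Ver library. Reads that begin with U made up 70.3%, 75.9% and 71.9% of the predicted 21-nt reads in Nor 1 to 3 and 68.2%, 65.6% and 67.2% in Ver 1 to 3. The groups did not overlap, with means of 72.7% ± 2.88 and 67.0% ± 1.28 (SD over 3 libraries each, exact two-sided permutation p = 0.1, the smallest possible, adjusted p = 0.143 over 10 such measures). The share that begins with A went the other way, from 17.2% ± 1.19 in Nor to 25.6% ± 1.39 in Ver (SD over 3 libraries each, exact two-sided permutation p = 0.1). Counted by reads, the direction of the U share changed when PC-3p-2287_2359 was left out. For this share no other sequence was left out, and rises of sequences that begin with A also lower it in Ver. Without it Nor had 60.5% ± 3.04 and Ver 64.2% ± 1.31 (SD over 3 libraries each, exact two-sided permutation p = 0.2), and the groups overlapped. With each detected sequence counted once, the share with U first was again lower in Ver. The difference (Ver minus Nor) was then -4.14 percentage points (exact two-sided permutation p = 0.1).

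**Figure D1:**
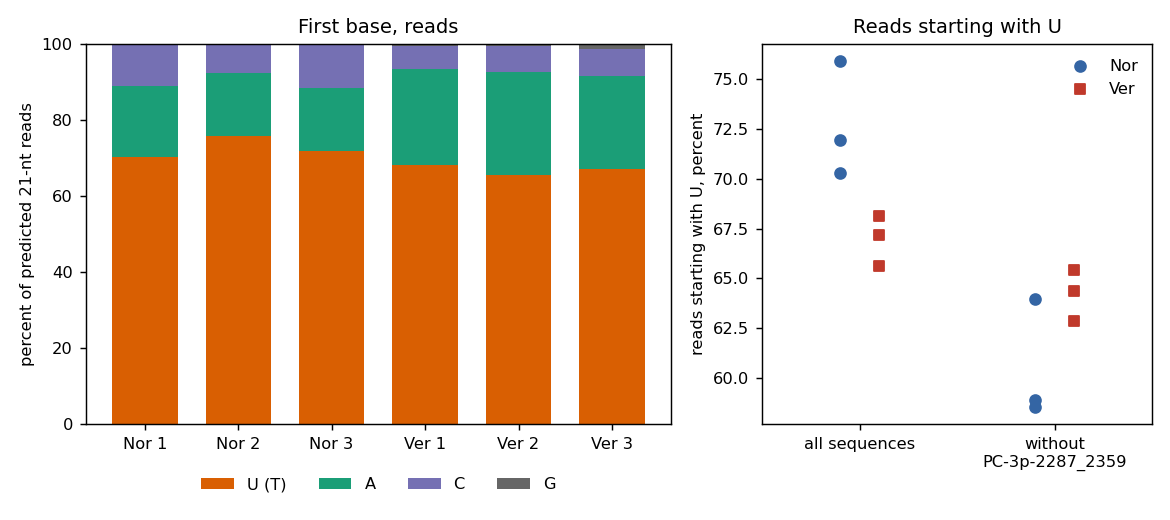
In each of the 6 libraries, bars (left) stack the percent of predicted 21-nt reads with each first base, and points (right) give the percent of reads that begin with U per library, for all sequences and without PC-3p-2287_2359. With all sequences the Nor libraries lie at 70.3% to 75.9% and the Ver libraries at 65.6% to 68.2%, and without PC-3p-2287_2359 the groups overlap.

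The 101 sequences lay on 112 precursors, of which 61 were listed on the plus strand and 51 on the minus strand. Chromosomes A03 and A09 held 21 precursors each, and A08 held 3. A single precursor was listed for 77 sequences and a pair of precursors for 24. On the hairpins 52 sequences formed the 5′ arm and 49 the 3′ arm. The deposited hairpin length, which is not the length of the printed precursor sequence, had a median of 150.5 bases, and the deposited folding free energy a median of -77.5 kcal/mol. In the deposited fold a median of 20 of the 21 mature bases were paired. In 28 sequences the mature sequence differed by 1 base from every precursor listed for it.

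The positions of minus-strand precursors need a caution. There were 19 stretches whose precursor was listed on both strands, with reverse-complementary hairpins that matched at 100% of the aligned bases (median), and they involved 25 of the predicted 21-nt miRNAs. In all 19 the listed start of the minus-strand copy was 46 to 103 bases away from the place its sequence gives. For 14 of them the most abundant mature sequence was found without a mismatch in its precursor, and in all 14 the shift equalled the difference between the bases on its 5′ side and those on its 3′ side. Of 12 pairs of overlapping plus-strand precursors, 11 had listed starts as the sequence gives. Minus-strand positions are therefore printed as deposited and may be off by this shift.

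The A06 and A02 hairpins are 2 of these stretches. PC-3p-88318_29 is listed on A06:674072-674206, minus strand, while its hairpin is the reverse complement of the whole A06 hairpin at A06:674146-674280. PC-3p-88318_29 and PC-5p-208903_6 pair over an unbroken run of 19 bases, so they come from the opposite strands of the same hairpin arm. By sequence the A02 hairpin lies at A02:22818363-22818487, inside and on the opposite strand to the precursor of bra-MIR9562-p3 at A02:22818344-22818492. bra-MIR9562-p3 had 9, 5 and 0 reads in Ver 1 to 3 and none in Nor. PC-5p-21881_264 (named after its values were seen) is complementary over 19 bases to bra-miR390-3p_R-1, the passenger strand of miR390, and lies opposite its precursor. A second precursor is listed for it at A05:3694849-3694929, plus strand, and its reads are the sum over both. It had 36, 41 and 29 reads in Nor and 25, 15 and 8 in Ver, and edgeR did not call it (adjusted p = 0.0749 for a log2 fold change of -0.84 with SE 0.373), while bra-miR390-3p_R-1 rose by 1.91 on the log2 scale (SE 0.070, edgeR adjusted p = 3.583e-08).

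Positions were compared with gene spans of RefSeq (CAAS_Brap_v3.01) for the 61 plus-strand precursors alone. Of the 87 RefSeq miRNA genes on chromosomes, 71 lay at exactly the position of a B. rapa miRBase precursor in the table, so the same coordinate system was taken to hold. Protein-coding genes overlapped 31 of the 61 precursors, lncRNA genes 2 and a pseudogene 1, and 27 overlapped no gene. RefSeq gives whole gene spans here, so exons, introns and UTRs were not told apart. The A06 precursor of PC-3p-2287_2359 lay in no gene, and the A09 precursor of PC-5p-4596_1293 overlapped the protein-coding gene LOC103838637.

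Reads from both arms of a precursor were rare. There were 11 pairs of predicted 21-nt miRNAs on opposite arms of the same precursor, and 8 of these had the 2-base 3′ overhang at both ends that Dicer-like enzymes leave. Both arms had reads in the same library in at least 1 library for 10 pairs, and in all 3 libraries of a group for 1 pair, that of the A02 hairpin. A partner of another length or with a miRBase name was listed for 7 further predicted 21-nt miRNAs on the opposite arm, and 71 had no other listed sequence on their precursor.

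The A02 pair was the most balanced of the abundant pairs and was read in Ver alone. PC-3p-19661_302 had 264, 168 and 192 reads in Ver 1 to 3 and 0 in each Nor library. PC-5p-39941_114, which is also listed with 1 mismatch on A09, had 107, 76 and 89 reads in Ver and 0 in each Nor library. The 3p arm held 71.2%, 68.9% and 68.3% of the reads of the pair in Ver 1 to 3, so the ratio of the arms was nearly the same in the 3 libraries. In the deposited fold the 3′ overhang between the arms was 3 bases at each end of the duplex.

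The A06 pair was one-sided. PC-3p-2287_2359 had 662, 563 and 543 reads in Nor and 156, 118 and 113 in Ver. Its partner PC-5p-208903_6 had 5, 6 and 0 reads in Nor and none in Ver, which is 0.508% of the reads of the pair over all libraries. The partner on the A09 precursor was the stronger arm, since the 24-nt PC-3p-3407_1680 had 580, 365 and 436.5 reads in Nor and 250.5, 240 and 214.5 in Ver, against 262, 202 and 162, then 226, 169 and 161 for PC-5p-4596_1293. The 24-nt arm fell by 0.60 on the log2 scale (SE 0.118, edgeR adjusted p = 0.00177), while edgeR did not call the 21-nt arm (adjusted p = 0.183 for a log2 fold change of 0.19 with SE 0.117). The difference between the arms was not tested.

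The remaining pairs named by abundance had 55 to 106 reads over all libraries. The pair with most was PC-5p-100623_23 and PC-3p-38498_120 on A07, with 14 and 92 reads, both arms present in 4 libraries and 2-base overhangs at both ends. PC-5p-44184_97 with PC-3p-206684_6 had 71 and 9 reads, and PC-5p-77720_37 with PC-3p-57273_63 had 14 and 64. PC-5p-53030_72 with PC-3p-258414_5 had 72 and 5 reads, PC-5p-68491_47 with PC-3p-168519_8 had 47 and 15, and PC-5p-145805_11 with PC-3p-66268_49 had 6 and 49. In each of these pairs the weaker arm was at or near the floor of 5 reads in most libraries.

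**Figure D2:**
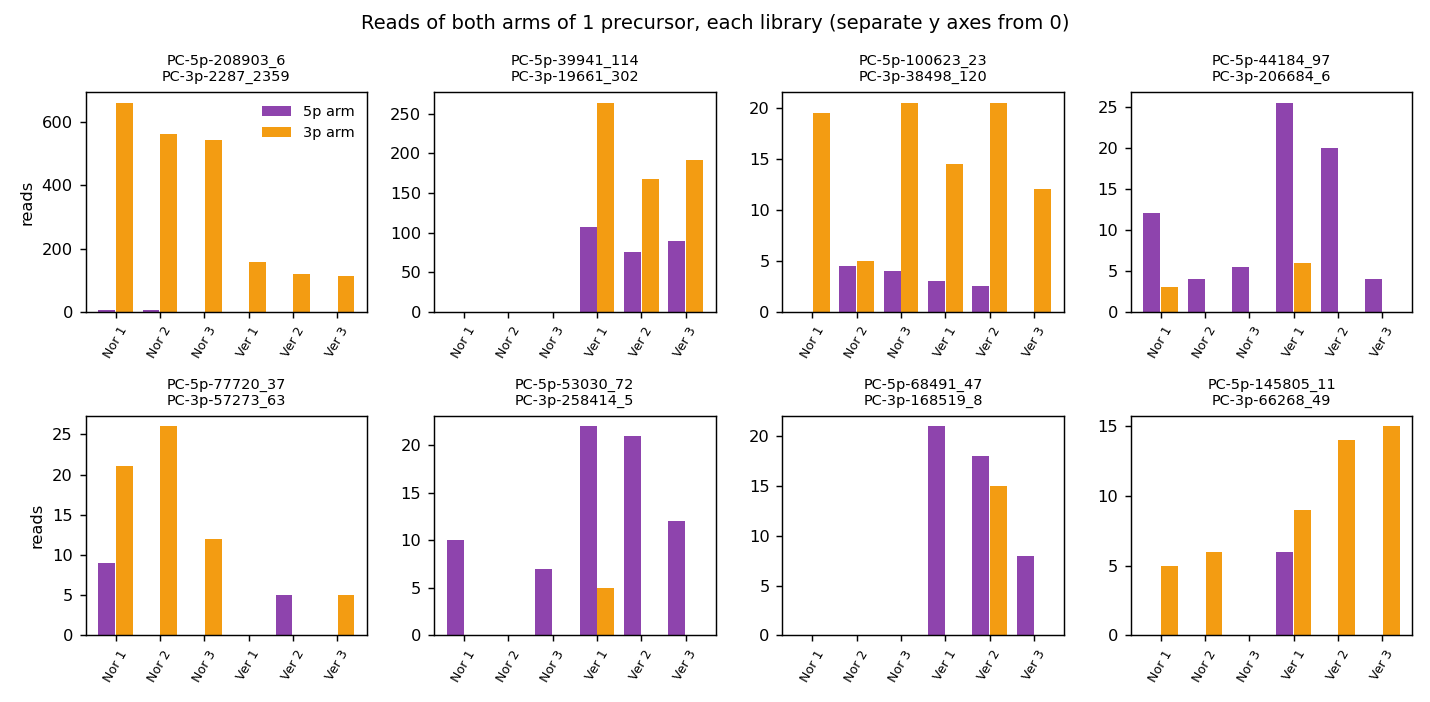
Each panel is 1 of the 8 arm pairs with the most reads, bars give the deposited reads of the 5p and the 3p arm in Nor 1 to 3 and Ver 1 to 3, and each y axis starts at 0 with its own scale. The A02 pair has reads of both arms in the 3 Ver libraries (264, 168 and 192 for the 3p arm) and none in Nor, and in the A06 pair nearly all reads come from the 3p arm.

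Vernalized and non-vernalized seeds differed in 17 predicted 21-nt miRNAs, of which 12 were upregulated and 5 downregulated in Ver. These are bulk libraries, in which fewer cells of a type and less RNA per cell cannot be told apart. The filter kept 40 of the 101, and the 61 others had at most 71 reads over all libraries. Over all 405 sequences tested 61.0% were called, 28.1% higher and 32.8% lower in Ver. Among the 40, 42.5% were called, 30% higher and 12.5% lower, so the share of higher calls was near that of all sequences. At the thresholds of the study, a log2 fold change beyond 1 in either direction and p no higher than 0.05 before adjustment, there were 19, of which 14 were higher and 5 lower, beside 43.2% of all sequences tested. A sequence absent from 1 group passed the filter only through the other, as did 5 of the 12 higher ones. The count of lower ones went from 5 to 3 without Nor 1 and to 8 without Ver 3.

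**Figure D3:**
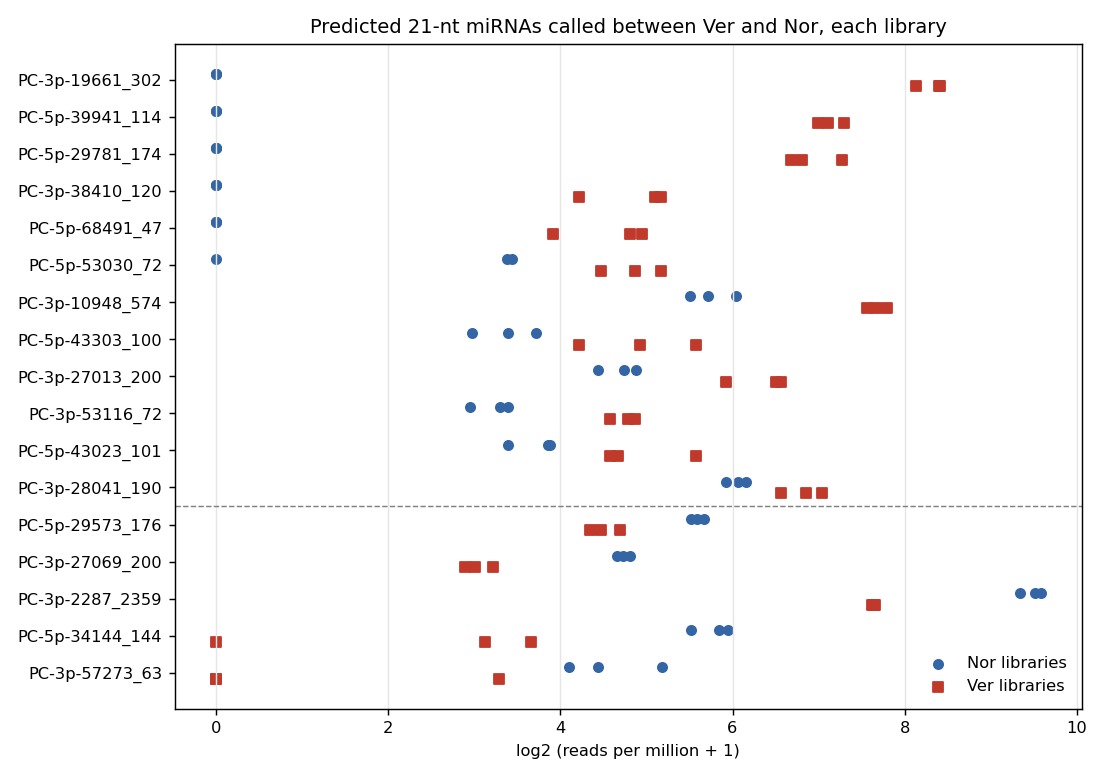
Level of the 17 called predicted 21-nt miRNAs in each library, on a log2 (RPM + 1) axis, with circles for the 3 Nor libraries and squares for the 3 Ver libraries, rows ordered by log2 fold change, and the dashed line separates the 12 higher in Ver from the 5 lower. The upper 5 rows have every Nor library at 0, and PC-3p-2287_2359 is highest of all in Nor.

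The largest rises were those of 5 sequences without a read in Nor. They began with PC-3p-19661_302, whose level was 318 ± 33.8 RPM in Ver (SD over 3 libraries), at least 51.8-fold higher than 5 reads per library in Nor (edgeR adjusted p = 4.209e-07). Its arm partner PC-5p-39941_114 reached 140 ± 15.2 RPM in Ver (SD over 3 libraries), at least 22.8-fold higher (edgeR adjusted p = 2.367e-06). Both come from the same hairpin and are not separate observations of a locus.

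PC-5p-29781_174 (listed at A06:25444714-25444912, minus strand) had 79, 92 and 63 reads in Ver 1 to 3 and none in Nor. This is 122 ± 27.6 RPM in Ver (SD over 3 libraries) and at least 19.8-fold higher (edgeR adjusted p = 7.222e-06). For PC-3p-38410_120 the Ver reads were 26.5, 21 and 10, at least 4.66-fold higher (edgeR adjusted p = 7.344e-04). PC-5p-68491_47, listed on both strands of a stretch of A09, had 21, 18 and 8 reads in Ver, at least 3.85-fold higher (edgeR adjusted p = 0.00143). All 5 passed the low-count filter only through their reads in Ver, so nothing is read from their number or from the stability of their calls. Their p-values take Nor as having no reads at all. Whether Ver exceeds 5 reads per library in Nor was not tested.

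PC-3p-10948_574 was the most abundant predicted 21-nt miRNA that rose from a measured level, and it is 1 of 2 that the study named in its network of competing RNAs. It had 66, 38 and 33 reads in Nor 1 to 3 and 158, 133 and 107 in Ver 1 to 3, and the lowest Ver library exceeded the highest Nor library. Its mean went from 53.6 ± 10.3 to 204 ± 16.6 RPM (SD over 3 libraries each), an estimated rise of 1.91 on the log2 scale (SE 0.183, edgeR adjusted p = 1.552e-05). Its hairpin is 1 of the 19 listed on both strands, and the 22-nt PC-5p-13953_448 from the opposite strand rose as well (log2 fold change 1.39, SE 0.194, edgeR adjusted p = 1.931e-04).

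PC-3p-28041_190, also among the 8 most abundant, rose less. It had 67, 44 and 52 reads in Nor and 73, 69 and 74 in Ver, which is 65.2 ± 5.23 and 113 ± 18.3 RPM (SD over 3 libraries each). It was called by edgeR (log2 fold change 0.78, SE 0.199, adjusted p = 0.00736) and not by DESeq2 (adjusted p = 0.0819). PC-3p-27013_200 had 21, 19 and 21 reads in Nor and 73, 54 and 34 in Ver, and its groups did not overlap (log2 fold change 1.71, SE 0.280, edgeR adjusted p = 5.375e-04). This is 1 of 3 called sequences outside the naming rule, with PC-3p-53116_72 (1.61, SE 0.452) and PC-5p-43023_101 (1.33, SE 0.455), which were named after their values were seen. DESeq2 called neither PC-3p-53116_72 (adjusted p = 0.118) nor PC-5p-43023_101 (adjusted p = 0.171).

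The last named rises rest on few reads, and DESeq2 called neither PC-5p-43303_100 (adjusted p = 0.0957) nor PC-5p-53030_72 (adjusted p = 0.127). PC-5p-43303_100 had 7, 7 and 9 reads in Nor and 23, 28 and 10 in Ver (log2 fold change 1.72, SE 0.513, edgeR adjusted p = 0.0163). PC-5p-53030_72 had 10, 0 and 7 reads in Nor and 22, 21 and 12 in Ver (log2 fold change 2.06, SE 0.738, edgeR adjusted p = 0.0362). The call of PC-5p-43303_100 was lost without Nor 1, Nor 2 or Ver 2 (edgeR adjusted p = 0.0600, 0.0562 and 0.0539). That of PC-5p-53030_72 was lost without any of the 6 libraries (edgeR adjusted p from 0.050 without Nor 2 to 0.117 without Ver 2). The call of PC-5p-43023_101 was lost without Nor 1, Nor 2, Nor 3 or Ver 2 (edgeR adjusted p = 0.0608, 0.107, 0.0579 and 0.0967).

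Of the 5 downregulated sequences PC-3p-2287_2359 was by far the most abundant. Its level was 650, 764 and 732 RPM in Nor 1 to 3 and 199.96, 196.30 and 198.66 RPM in Ver 1 to 3, so the Ver libraries were nearly equal and far below Nor. The mean fell from 715 ± 58.8 to 198 ± 1.86 RPM (SD over 3 libraries each), which is -1.85 on the log2 scale (SE 0.105, edgeR adjusted p = 5.134e-07). PC-5p-29573_176, with the same seed, had 51, 33 and 35 reads in Nor and 15, 15 and 12 in Ver (log2 fold change -1.12, SE 0.286, edgeR adjusted p = 0.00753). Its call was lost without Nor 1 (edgeR adjusted p = 0.0562) and with DESeq2 (adjusted p = 0.170). PC-3p-88318_29, the remaining sequence with this seed, had 10 reads in Nor 1, 8 in Ver 3 and none elsewhere, and was not tested.

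The other falls were those of PC-5p-34144_144, PC-3p-27069_200 and PC-3p-57273_63. PC-5p-34144_144 had 62, 33 and 42 reads in Nor and 6, 7 and 0 in Ver (log2 fold change -3.01, SE 0.599, edgeR adjusted p = 0.00181). PC-3p-27069_200 had 25.5, 20.5 and 18 reads in Nor and 5, 5 and 3.5 in Ver, at least 3.27-fold lower (edgeR adjusted p = 0.00712, not called by DESeq2 with an adjusted p of 0.118). Every Nor library of both was above every Ver library. PC-3p-57273_63 had 21, 26 and 12 reads in Nor and 0, 0 and 5 in Ver, at least 3.06-fold lower (edgeR adjusted p = 0.0218, not called by DESeq2 with an adjusted p of 0.111). Its call was lost without any single Nor library (edgeR adjusted p = 0.0801, 0.129 and 0.0540 for Nor 1 to 3), and also without Ver 1 (0.0785) or Ver 2 (0.0818).

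Among the abundant sequences 4 did not pass the test. PC-5p-4596_1293 averaged 250 ± 28.5 RPM in the Nor libraries against 285 ± 4.49 RPM in the Ver libraries (SD over 3 libraries each, edgeR adjusted p = 0.183), with the Ver libraries above the Nor libraries by a small margin. PC-3p-7098_872 had nearly equal means of 80.9 ± 0.453 and 83.0 ± 14.8 RPM (SD over 3 libraries each, edgeR adjusted p = 0.893). PC-5p-12932_485 had 122 ± 6.93 and 86.4 ± 21.8 RPM (SD over 3 libraries each, edgeR adjusted p = 0.0689), and PC-5p-13944_448 had 95.02 ± 27.9 and 68.5 ± 2.74 RPM (SD over 3 libraries each, edgeR adjusted p = 0.121). The libraries of the groups overlapped for PC-5p-13944_448 but not for PC-5p-12932_485. Both were called lower without 1 library, PC-5p-12932_485 without Ver 1 (edgeR adjusted p = 0.0464) and PC-5p-13944_448 without Nor 2 (edgeR adjusted p = 0.0245).

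PC-5p-49728_80, the other one named in the network of the study, lay just outside the threshold used here, an adjusted p under 0.05. It had 15, 6 and 7 reads in Nor 1 to 3 and 16, 16 and 15 in Ver 1 to 3, summed over its precursors on A01 and A09. On the RPM scale the lowest Ver library exceeded the highest Nor library, with means of 10.8 ± 3.49 and 24.5 ± 3.46 (SD over 3 libraries each). By edgeR its adjusted p was 0.0542 for a log2 fold change of 1.14 with SE 0.460. Before adjustment its edgeR p was 0.0347, so it passed the thresholds of the study. It was called with the factors of the authors as library sizes (edgeR adjusted p = 0.0278) and without Nor 1 (edgeR adjusted p = 0.0498), and over its alternatives the adjusted p ranged from 0.0278 to 0.263.

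**Figure D4:**
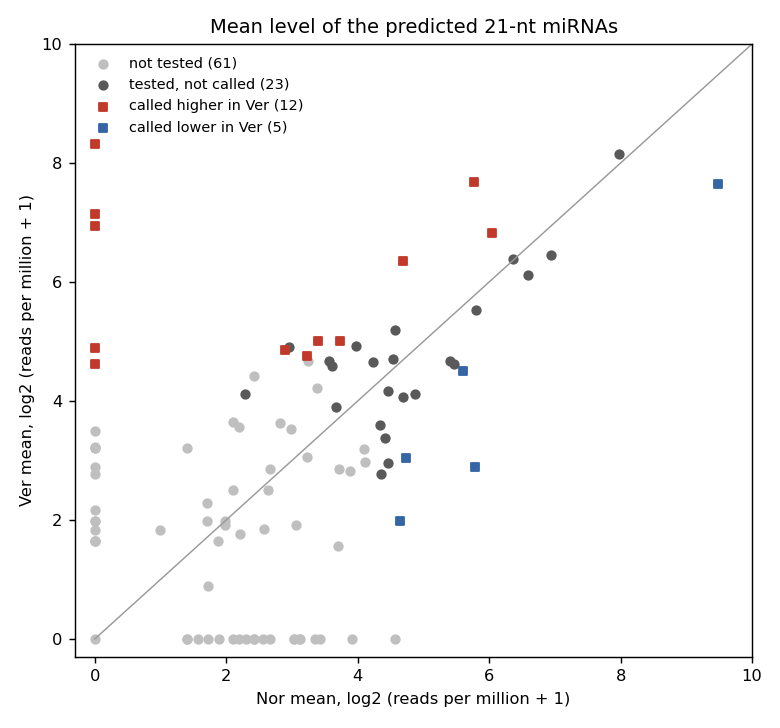
Mean level of each of the 101 predicted 21-nt miRNAs in Nor (x axis) and Ver (y axis), both as log2 (RPM + 1), with the line of equal levels and points coloured by the edgeR result, with 12 called higher, 5 called lower, 23 tested and not called, and 61 not tested. Points on an axis have no reads in the other group, and the 5 called among them all lie on the Ver axis.

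Sequences read in 1 group alone were mostly near the floor. There were 20 with reads in Nor libraries alone, 18 in Ver libraries alone and 62 in both. The same split over all sequences was not counted, so nothing is read from these numbers. Of the 100 with reads, 5 had reads in all 3 Nor libraries and no Ver library, beside 6.88% of all 872 sequences with reads, and 6 had reads in all 3 Ver libraries and no Nor library, beside 2.52%. The 5 in Nor were PC-5p-53457_71, PC-3p-125381_15, PC-5p-98687_24, PC-5p-103659_22 and PC-3p-110105_19. The first had 25, 10 and 22 reads, at least 2.88-fold above 5 reads per library, and PC-3p-125381_15, with the seed TACTCTA, had 10, 17 and 7. None of the 5 passed the filter, so they were not tested. The 6 in Ver were the 5 called sequences above and PC-5p-108850_20, with 8, 6 and 6 reads.

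None of the 4 sequences that share the seed TACTCTA was called, and edgeR tested 1 of them. PC-3p-44920_95 had 27, 14 and 13 reads in Nor and 17, 11 and 6 in Ver, and its groups overlapped on the RPM scale (log2 fold change -0.31, SE 0.447, edgeR adjusted p = 0.556). PC-3p-101963_22 had 8, 6 and 0 reads in Nor and 0, 6 and 5 in Ver, and PC-3p-82465_33 had 9, 5 and 0, then 11, 0 and 0. Neither was tested. PC-3p-125381_15 is given above.

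A few predicted 21-nt miRNAs shared bases or a precursor with a miRBase-named sequence. With a miRBase-named sequence 5 shared the seed, and 2 of these lay on its own precursor. Whether the others belong to the same families was not tested. PC-3p-28041_190 shared no such seed, but it shared a run of 16 or more bases, read in the same direction, with bra-MIR5654a-p3_2ss6GT19TC. That sequence had 293, 172 and 214 reads in Nor 1 to 3 and 321, 290 and 199 in Ver 1 to 3. PC-5p-90014_28 lay on the 5′ arm of a precursor on A06 named for miR171, beside gma-miR171o-5p_2ss1AC17CG, and had 29, 5 and 29 reads in Nor and 0, 0 and 27 in Ver (log2 fold change -0.73, SE 1.22, edgeR adjusted p = 0.604). The miR171 family acts on GRAS transcription factors in Arabidopsis. PC-5p-129212_14 lay on a precursor on A07 named for miR395, the family that responds to sulfate supply, and had 14 reads in Ver 3 and none elsewhere.

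Calls in the higher direction made up 30% of the predicted 21-nt miRNAs tested, near the 28.1% over all sequences tested. Of 39 predicted 24-nt sequences tested, 3 were higher and 13 lower in Ver, and of 148 miRBase-named 21-nt sequences 53 were higher and 52 lower. The median log2 fold change was 0.21 for the 40 predicted 21-nt miRNAs, -0.93 for the predicted 24-nt sequences, -0.09 for the miRBase-named 21-nt sequences and -0.19 for all 405 tested, and setting sequences at the floor to their bound left each median as it was. The median of the predicted 21-nt miRNAs changed sign with the filter and the rows taken, to -0.02 without a filter and to -0.07 with 1 row taken per sequence, and it was -0.04 without Ver 2. With the factors of the authors as library sizes, the median of all sequences tested shifted by 0.14 and 17 instead of 12 predicted 21-nt miRNAs were called higher. Differences between the lists were not tested.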

How the data were processed

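Small RNA libraries (TruSeq Small RNA kit, single-end reads) of 3 Nor and 3 Ver samples were read from a single table. The authors removed adapters, low-complexity reads and common RNA families, and matched unique sequences to miRBase precursors by BLAST, with settings not given in the sources used here. The study states the B. rapa v3.0 genome for its mRNA reads, and it was taken for the small RNA positions because 71 of 87 RefSeq miRNA genes (CAAS_Brap_v3.01) lay at exactly a listed position. As deposited, the raw columns hold estimated counts (reads were divided over rows), and the deposited normalized values are a signal, the raw value times 1 factor per library. GC content is deposited as a percent, and folding energy and its index as a score. No value column belonged to another sample.

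Rows of 1 sequence were added, which made all 91 nonzero values of sequences on 2 rows whole, and rounded to whole numbers. Of the 872 sequences with reads, 405 passed the default filter of edgeR 4.0.16 in R 4.3.3 (quasi-likelihood test, TMM factors 0.949 to 1.05, biological coefficient of variation 0.146). DESeq2 1.42.0, other library sizes (the factors of the authors, the valid reads of the study), other filters, unrounded values, 1 row per sequence, a replicate block and leaving out each library were alternatives. Replicates differed by more than counting error (chi-square per degree of freedom 3.01 to 11.7), reads are not independent molecules, and p-values measure the spread between these 3 dishes per group. The test was checked on simulated counts, which had less spread between replicates than these data and no floor at low counts. The check therefore does not cover sequences at the floor.

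Named sequences were the 8 most abundant, the 8 largest rises and falls among those called, the 8 arm pairs with most reads, up to 6 in all libraries of only 1 group, and both predicted miRNAs of the network of the study. Other predicted 21-nt miRNAs (the remaining called ones, those with a shared seed, and those beside or opposite a miRBase precursor) were named after their values were seen. The members, lists and rule were chosen with earlier results of these data known.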

Additional observations from a re-analysis of the deposited data

How the results depend on the processing

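The 17 calls kept their direction in every alternative that tested them, but not their call. Those without a read in Nor could not change direction, so nothing is read from their part in this. The filter of at least 10 reads in every library tested 13 predicted 21-nt miRNAs and called 3 higher and 3 lower, with 4 past the thresholds of the study, because it removed 12 of the 17. The replicate block called 8 higher, 3 lower and 204 of all sequences. It lost PC-3p-27069_200, PC-3p-53116_72, PC-3p-57273_63, PC-5p-43023_101, PC-5p-43303_100 and PC-5p-53030_72 (edgeR adjusted p = 0.0554, 0.0742, 0.0851, 0.127, 0.0830 and 0.121). The replicate numbers showed no pairing of the libraries (correlation of deviations 0.128, -0.182 and -5.834e-04 for numbers 1 to 3). With 3 libraries per group this is a weak check, and what the loss reflects was not tested. DESeq2 called 8 higher and 4 lower and kept 9 of the 17. Leaving out 1 library gave 9 to 12 higher, 3 to 8 lower, 16 to 21 past the thresholds of the study and 216 to 249 of all sequences. The number of predicted 21-nt miRNAs detected, with a mean difference (Ver minus Nor) of -3.67, reversed to 1.67 without Nor 1 and to 4.00 at the level of 5 reads in the smallest library, and ranged from -7.83 to 1.67 over single libraries left out. The share of reads that begin with U stayed lower in Ver (-6.94 to -4.14 percentage points), and the share of table reads stayed higher (0.0160 to 0.0297 percentage points), when single libraries were left out. PC-3p-7098_872, not called, reversed to -0.043 without Ver 2 (-0.043 to 0.184 over single libraries left out). Of the single results named, 285 alternatives gave the same call, 35 lost it and 5 gained it. These counts include the sequences without a read in Nor. Most sequences lay near the floor of 5 reads, where depth limits any call.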
